A study of Homo sapiens with 6 samples.

Results

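The 10 genes described here set the pace of the G1 phase of the cell cycle or hold it back. They are the CIP/KIP inhibitors CDKN1A, CDKN1B and CDKN1C, the INK4 inhibitors CDKN2A, CDKN2B and CDKN2C, the cyclins CCND1, CCND3 and CCNE1, and the kinase CDK6. They and the gene lists below were chosen by symbol for their function, but with earlier results of these data known. Each symbol of the 10 matched 1 of the 61533 rows of the count table. Of the 10, 8 had enough counts to be tested, among 14071 tested genes, and CDKN2A and CDKN2B did not. RNA was measured in MDA-MB-231, a human cell line established from triple-negative breast cancer, grown in medium with serum and harvested below confluence. One group is shKDM2B (3 libraries), with the genotype label KDM2B knockdown and a short hairpin RNA against KDM2B. The other is empty vector (3 libraries), labelled WT, which carries a vector without a hairpin. A single hairpin code, the unexplained sh79, appears in the table, and there is no control with an unrelated hairpin. The labels do not say whether the cells were a pool or a clone, or whether replicates came from separate cultures. The p-values below therefore cover the spread among the 6 libraries alone, and part or all of that spread may be technical. The libraries are bulk RNA, in which fewer cells of a state and less RNA per cell cannot be told apart.

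In G1, D-type cyclins bind CDK4 or CDK6 and start to phosphorylate the retinoblastoma protein RB1, which frees E2F transcription factors. Cyclin E with CDK2 completes that step and S phase begins. INK4 proteins bind CDK4 and CDK6 and keep cyclin D off them, whereas CIP/KIP proteins bind cyclin-CDK complexes, inhibit CDK2 and can help to assemble cyclin D with CDK4 or CDK6. KDM2B is a histone demethylase with a CXXC zinc finger that binds unmethylated CpG and brings the Polycomb complex PRC1.1 to CpG islands, and in mouse cells it is known to repress Cdkn2b. In the libraries labelled shKDM2B, KDM2B had 153, 166 and 224 counts, against 589, 714 and 902 in empty vector libraries. Its level was 14.6 ± 0.183 CPM (counts scaled to library size by the trimmed mean of M-values, TMM) in shKDM2B and 63.3 ± 5.56 CPM in empty vector cells (SD, n = 3 each), a log2 fold change of -2.12 (SE 0.08).

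Because KDM2B reads CpG, the 250 bases before the RefSeq start are shown for 4 of the genes, with every CpG in capitals (RefSeq, build GRCh38.p14). CDKN1A and CDKN1B rose, CCNE1 fell, and CDKN2B is the locus known from mouse work. The windows are chr6:36678464-36678713 (plus strand) for CDKN1A, chr12:12717118-12717367 (plus) for CDKN1B, chr19:29811741-29811990 (plus) for CCNE1 and chr9:22009306-22009555 (minus) for CDKN2B, each written 5′ to 3′ on the gene's strand.
CDKN1A: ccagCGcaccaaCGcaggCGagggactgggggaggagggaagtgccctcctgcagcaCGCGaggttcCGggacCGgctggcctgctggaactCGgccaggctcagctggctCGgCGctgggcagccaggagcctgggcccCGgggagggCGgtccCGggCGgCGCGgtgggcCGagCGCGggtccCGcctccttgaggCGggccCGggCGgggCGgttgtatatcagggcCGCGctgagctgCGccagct
CDKN1B: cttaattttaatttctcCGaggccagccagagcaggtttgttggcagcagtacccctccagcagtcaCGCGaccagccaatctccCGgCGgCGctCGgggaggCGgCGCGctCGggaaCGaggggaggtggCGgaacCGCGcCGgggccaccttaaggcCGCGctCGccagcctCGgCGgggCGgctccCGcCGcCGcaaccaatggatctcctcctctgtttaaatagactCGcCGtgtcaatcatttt
CCNE1: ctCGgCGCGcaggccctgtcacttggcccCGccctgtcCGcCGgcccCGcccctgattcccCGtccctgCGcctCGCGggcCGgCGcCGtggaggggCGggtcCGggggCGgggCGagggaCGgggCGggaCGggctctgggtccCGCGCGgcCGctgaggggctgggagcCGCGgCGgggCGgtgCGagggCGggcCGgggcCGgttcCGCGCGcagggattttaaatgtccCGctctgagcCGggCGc
CDKN2B: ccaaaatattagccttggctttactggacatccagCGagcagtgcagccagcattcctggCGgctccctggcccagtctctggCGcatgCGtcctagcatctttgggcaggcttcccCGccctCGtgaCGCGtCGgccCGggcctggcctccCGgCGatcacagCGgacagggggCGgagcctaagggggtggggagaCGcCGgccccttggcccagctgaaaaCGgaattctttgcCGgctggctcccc
The CDKN1A window holds 27 CpG and 4 GC boxes (GGGCGG on either strand, a word that itself contains a CpG). The CDKN1B window also holds 27 CpG, with 1 GC box. CCNE1 has 39 CpG and 7 GC boxes, and CDKN2B has 18 CpG and 2 GC boxes. All 4 lie above the median of 11 CpG over 35116 promoter windows of the same length, of which 42.6% hold a GC box. Fewer CpG than in CCNE1 are found in 97.3% of promoters, and the share is 82.3% for CDKN1A and for CDKN1B and 63.2% for CDKN2B.

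CpG counts overlapped between the genes that rose and those that fell. In all, 8 of the 10 genes matched, with 14 windows, and CCND1 and CDKN1C had no entry. CDK6, which rose, had windows of 30 and 23 CpG, and CCND3, which fell, had windows of 26, 26 and 3. CDKN2C had windows of 7, 35 and 10 CpG, of which the first and the third hold the E-box word CACGTG (both strands, with a CpG inside), present in 6.34% of promoters. The E2F words TTTCCCGC and TTTGGCGC, the forkhead word GTAAACA and the core promoter word TATAAA, searched on both strands, are in 1.39%, 0.55%, 2.98% and 10.7% of promoters and are not in these 14 windows. These letter matches describe the reference sequence, and neither binding nor methylation was measured here.

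The response to the hairpin was broad, so counts of called genes are given beside the shares over all tested genes. Of the 14071 tested genes, 30.5% were called higher in shKDM2B and 30.4% lower (edgeR's quasi-likelihood test with Benjamini-Hochberg adjustment, two-sided, adjusted p under 0.05), 60.9% in all. Groups did not overlap for 65.5%, and 7.14% were called at least 2-fold higher. Library totals ran from 10437732 to 15737951 counts in shKDM2B and from 10190149 to 13635565 in empty vector. Summed levels of 6 genes marking this mesenchymal-like line (VIM, CD44, CAV1, EGFR, AXL and MSN) were 7422.1 to 7767.1 CPM in shKDM2B and 7705.1 to 8106.4 CPM in empty vector libraries, but they did not move alike. VIM fell to 404.7 ± 10.2 CPM in shKDM2B, against 1295.0 ± 52.1 CPM in empty vector (log2 fold change -1.68, adjusted p 1.42e-12), and CAV1 fell as well (log2 fold change -0.35, adjusted p 0.00061). CD44, EGFR and AXL were higher, with log2 fold changes of 0.20, 0.19 and 0.17, and MSN was at -0.03 (adjusted p 0.466). ESR1 and PGR, absent from a triple-negative line by definition, stayed at or below 0.195 and 0.13 CPM in shKDM2B and 0.289 and 0.217 CPM in empty vector libraries. ERBB2 RNA was present, at 62.3 ± 3.79 CPM in shKDM2B and 63.5 ± 8.31 CPM in empty vector. Of the epithelial genes listed as absent or low in this line, KRT18 was present, at 240.4 ± 6.35 CPM in shKDM2B and 211.0 ± 35.6 CPM in empty vector. EPCAM was at 10.1 ± 2.13 CPM in shKDM2B and 9.0 ± 1.59 CPM in empty vector, and CDH1 had 4, 4 and 2 counts in shKDM2B and 0 in each empty vector library. Summed levels of 8 markers of leukocytes, fibroblasts and endothelium were 1.74 to 1.83 CPM in shKDM2B and 0.679 to 0.938 CPM in empty vector. None of the 8 reached the tested range, CD3E was at 0 in all 6 libraries, and CD14 had 8 to 12 counts in shKDM2B against 1 to 3 in empty vector libraries. Mitochondrially encoded genes took 0.326 ± 0.141% of counts in shKDM2B and 0.111 ± 0.0376% in empty vector, and shKDM2B replicate 1 was the highest library at 0.476%. MALAT1, a nuclear noncoding RNA, took 0.246 to 0.311% of counts in shKDM2B libraries and 0.0958 to 0.107% in empty vector libraries, and small RNA genes took 0.198 ± 0.0143% in shKDM2B and 0.151 ± 0.0281% in empty vector. The part of these shifts in the results below was not tested. All 8 tested members kept their call without shKDM2B replicate 1, although mitochondrially encoded genes still took 0.196 and 0.305% of counts in the other shKDM2B libraries, against 0.0767 to 0.151% in empty vector libraries.

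The inhibitors of the CIP/KIP class all rose in shKDM2B cells, and the cyclins were split. All 3 CIP/KIP inhibitors were higher, as were CDKN2C, CCND1 and CDK6, while CCND3 and CCNE1 were lower. That is 6 higher and 2 lower of 8 tested, beside 30.5% and 30.4% of all tested genes. The groups did not overlap for any of the 8, beside 65.5% of all tested genes. The 3 CIP/KIP genes were at least 2-fold higher, beside 7.14% of all tested genes. The median log2 fold change of the 8 was 0.78, against -0.007 over all tested genes. These counts describe the 8 genes and include CDKN1C, which entered the test only through its shKDM2B libraries.

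**Figure D1:**
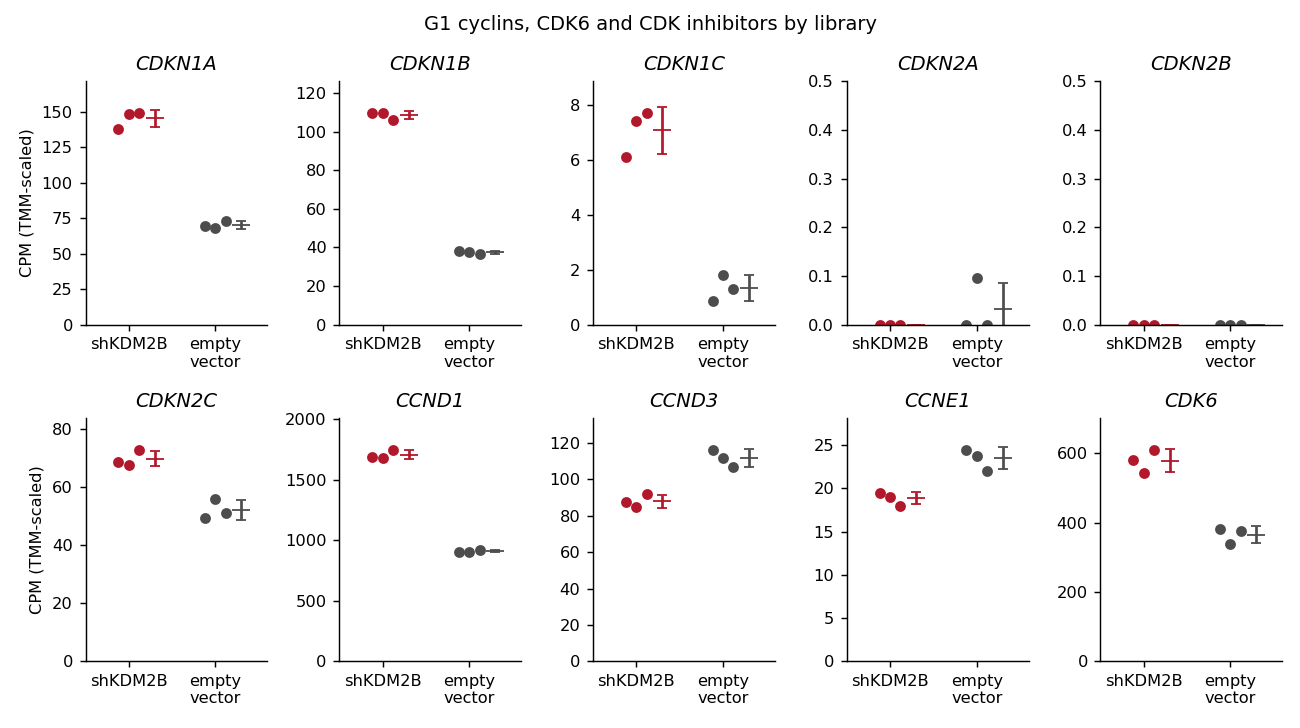
TMM-scaled CPM of the 10 genes in each library (vertical axes start at 0 and differ between panels), with shKDM2B in red on the left and empty vector in grey on the right of each panel; bars are mean ± SD of 3 libraries. The 3 shKDM2B points lie above the 3 empty vector points for CDKN1A, CDKN1B, CDKN1C, CDKN2C, CCND1 and CDK6 and below them for CCND3 and CCNE1, while CDKN2A and CDKN2B stay at or near 0.

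The CIP/KIP inhibitors rose together, from 2.07-fold for CDKN1A to 5.35-fold for CDKN1C. CDKN1A encodes p21, an inhibitor of CDK2 complexes. It had 138.2, 148.7 and 149.3 CPM in shKDM2B libraries, against 69.3, 68.2 and 73.1 CPM in empty vector libraries. Every shKDM2B library was far above the highest empty vector library. The means were 145.4 ± 6.23 CPM in shKDM2B and 70.2 ± 2.59 CPM in empty vector (SD, n = 3 each), a log2 fold change of 1.05 (95% interval 0.93 to 1.17, SE 0.06, adjusted p 1.44e-09). CDKN1A (ENSG00000124762.14) spans chromosome 6 from 36676460 to 36687339, plus strand (GRCh38). The noncoding gene DINOL, which overlaps it on the opposite strand, had 1, 0 and 0 counts in shKDM2B and 0 in each empty vector library.

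CDKN1B encodes p27, the inhibitor that holds cyclin E-CDK2 inactive in resting cells and is destroyed as cells enter S phase. It had 109.7, 109.6 and 106.1 CPM in shKDM2B libraries, against 38.0, 37.9 and 36.7 CPM in empty vector libraries. The groups were well apart, and the 3 libraries of each were close to each other. The means were 108.5 ± 2.05 CPM in shKDM2B and 37.5 ± 0.697 CPM in empty vector, a 2.89-fold increase (95% interval 2.67 to 3.13, log2 fold change 1.53, SE 0.05, adjusted p 2.96e-11). The size of its change exceeded that of 95.6% of all tested genes, and that of CDKN1A exceeded 89.1%. CDKN1B (ENSG00000111276.12) spans chromosome 12 from 12715058 to 12722371, plus strand.

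CDKN1C encodes p57, the third family member, an imprinted gene known for its role in development. It rose 5.35-fold, but from few reads. It had 63, 85 and 119 counts in shKDM2B libraries, against 9, 19 and 18 in empty vector libraries. In CPM these were 6.11, 7.42 and 7.72 in shKDM2B and 0.872, 1.80 and 1.30 in empty vector. All shKDM2B libraries were above all empty vector libraries, and the empty vector libraries varied more in proportion to their mean. The fold change had a 95% interval of 3.83 to 7.47 (log2 fold change 2.42, SE 0.22, adjusted p 4.2e-07). CDKN1C passed the low-count filter only through its shKDM2B libraries, so its call had to be one of an increase. CDKN1C (ENSG00000129757.15) spans chromosome 11 from 2883213 to 2885773, minus strand.

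Levels per kilobase of exon let different genes be set beside each other, but only roughly. The divisor joins all annotated exons of a gene, which can be longer than the transcript in use. On this scale, the 3 inhibitors summed to 86.8, 90.7 and 89.8 CPM per kb in shKDM2B libraries, against 36.6, 36.6 and 37.6 in empty vector libraries. CDKN1A made up 53.5 ± 1.17% of that sum in shKDM2B and 62.3 ± 1.37% in empty vector. The share of CDKN1B was 43.3 ± 1.53% in shKDM2B and 36.2 ± 1.21% in empty vector. CDKN1C stayed the smallest part at 3.20 ± 0.326% in shKDM2B and 1.45 ± 0.516% in empty vector. The family total thus consisted almost wholly of p21 and p27 transcripts in both groups, with p27 taking a larger part in shKDM2B.

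CDKN2B, the locus known to be repressed by KDM2B in mouse cells, had no reads in either group. CDKN2B encodes p15 and had 0 counts in all 6 libraries. CDKN2A, whose row covers both the p16 inhibitor of CDK4 and CDK6 and the ARF protein, had 0 counts in the 3 shKDM2B libraries and 0, 1 and 0 in the empty vector libraries. A count of 0 allows up to 3 counts, or 0.195 to 0.291 CPM in shKDM2B and 0.217 to 0.291 CPM in empty vector libraries, counting error only. RNA of either gene was therefore not detectable at this depth in shKDM2B cells, and no fold change is given. MDA-MB-231 is known as a line with a homozygous deletion of CDKN2A, but DNA copy number was not measured here. CDKN2A (ENSG00000147889.18) spans chromosome 9 from 21967753 to 21995301, minus strand, and CDKN2B (ENSG00000147883.12) lies next to it, also on the minus strand, from 22002903 to 22009363.

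The lack of reads was shared by the neighbourhood of both genes. The interval from HACD4 to ELAVL2 (chromosome 9, 20999515 to 23826337, chosen after its values were seen) holds 64 rows of the table, of which 57 were at 0 in all 6 libraries, beside 42.1% of all rows of the table. Of its 24 protein-coding rows, 21 were at 0, beside 15% of all protein-coding rows of the table. Most of these 24 rows are type I interferon genes (IFNB1, IFNW1, IFNE and the IFNA genes), so the 15% is not a share over like genes. Among the rows at 0 were CDKN2B-AS1, which overlaps CDKN2B on the other strand, and HACD4, KLHL9, IFNE, MIR31HG, DMRTA1 and ELAVL2. MTAP, a methionine salvage enzyme encoded next to CDKN2A and active in most cells, had 0 counts in shKDM2B libraries and 0, 2 and 0 in empty vector libraries. The 4 counts of the protein-coding rows, those of CDKN2A, MTAP and IFNA1, all came from empty vector replicate 2. The pseudogene CLIC4P1 had 93 counts over the 6 libraries, but as a copy of CLIC4 it can take reads of its parent gene. Without CLIC4P1, all rows of the interval, protein-coding ones included, had 0, 0 and 2 counts in shKDM2B and 0, 6 and 0 in empty vector libraries.

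Reads returned on both sides of the interval. MLLT3 and FOCAD lie beyond HACD4. FOCAD had 105, 117 and 174 counts in shKDM2B and 89, 123 and 122 in empty vector libraries (log2 fold change 0.14, SE 0.13, adjusted p 0.402). MLLT3, an elongation complex subunit, fell to 13.7 ± 1.62 CPM in shKDM2B, against 21.6 ± 1.84 CPM in empty vector (log2 fold change -0.64, SE 0.11, adjusted p 0.000139). Beyond ELAVL2 and IZUMO3, which had 0 counts, TUSC1 had 100, 95 and 146 counts in shKDM2B and 84, 90 and 111 in empty vector libraries. CAAP1 had 451, 541 and 632 counts in shKDM2B and 347, 327 and 457 in empty vector libraries. The stretch without reads was thus bounded by genes with reads in both groups.

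**Figure D2:**
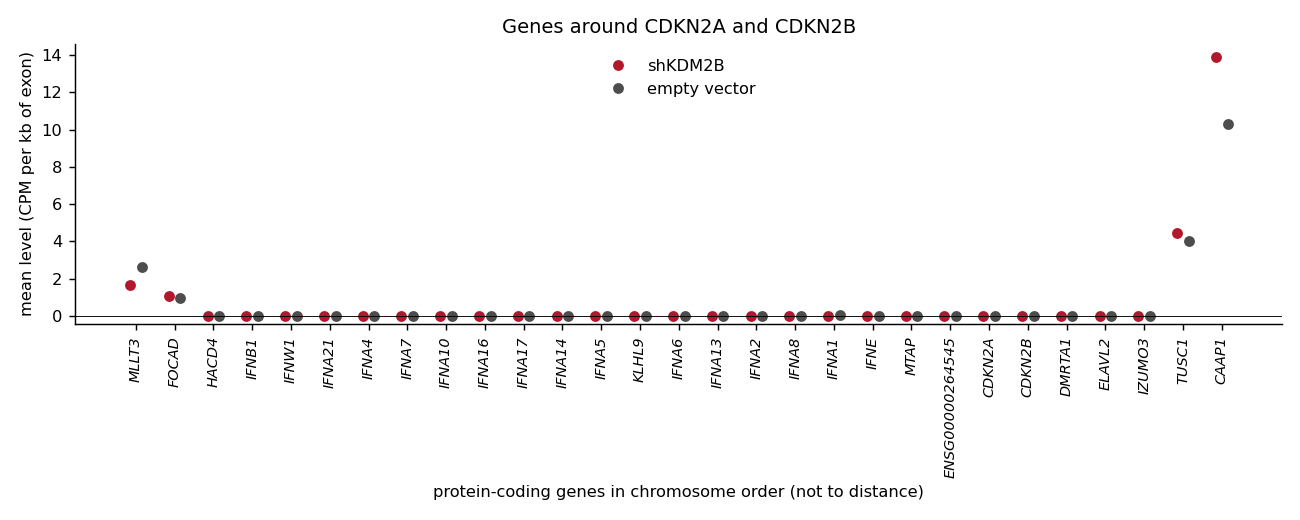
Mean level of the protein-coding genes around CDKN2A and CDKN2B, in CPM per kb of exon, in chromosome order and not to distance; red points are shKDM2B (left of each pair) and grey points are empty vector, n = 3 libraries each. MLLT3 and FOCAD on the left and TUSC1 and CAAP1 on the right lie above 0, and the genes from HACD4 to IZUMO3 lie at or next to 0 in both groups.

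CDKN2C was the one INK4 member of the 10 that could be tested, and it rose modestly. It encodes p18, an inhibitor of CDK4 and CDK6. It had 68.7, 67.7 and 72.9 CPM in shKDM2B libraries, against 49.3, 56.0 and 51.0 CPM in empty vector libraries. The lowest shKDM2B library was above the highest empty vector library. The means were 69.8 ± 2.74 CPM in shKDM2B and 52.1 ± 3.47 CPM in empty vector, a 1.34-fold increase (log2 fold change 0.42, SE 0.06, 95% interval 0.29 to 0.56, adjusted p 4.65e-05). CDKN2C (ENSG00000123080.12) spans chromosome 1 from 50960745 to 50974633, plus strand.

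The fourth INK4 gene, CDKN2D, which encodes p19 and is not one of the 10, rose as well. It had 10.7, 12.2 and 12.7 CPM in shKDM2B libraries, against 4.94, 6.08 and 5.99 CPM in empty vector libraries, without overlap (log2 fold change 1.07, SE 0.13, adjusted p 9.11e-06). The 4 INK4 genes summed to 28.9 ± 1.35 CPM per kb in shKDM2B and 19.5 ± 1.35 in empty vector. CDKN2C made up 72.7 ± 1.57% of that sum in shKDM2B and 80.6 ± 1.25% in empty vector, and nearly all the rest was CDKN2D.

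CCND1 was the most abundant of the 10 genes in both groups and rose 1.87-fold. It encodes cyclin D1, which links growth factor signals to CDK4 and CDK6. It had 1683.5, 1681.1 and 1747.5 CPM in shKDM2B libraries, against 902.8, 902.8 and 921.9 CPM in empty vector libraries. The groups were far apart and each was tight. The means were 1704.0 ± 37.7 CPM in shKDM2B and 909.2 ± 11.0 CPM in empty vector (log2 fold change 0.91, SE 0.03, 95% interval 0.83 to 0.98, adjusted p 6.29e-11). CCND1 (ENSG00000110092.4) spans chromosome 11 from 69641087 to 69654474, plus strand. LTO1 overlaps its end by 1399 bases on the other strand, and without a stated strand setting their shared reads cannot be told apart. LTO1 had 222, 252 and 313 counts in shKDM2B and 340, 358 and 443 in empty vector libraries, whereas CCND1 had 17370, 19257 and 26920 counts in shKDM2B and 9313, 9509 and 12773 in empty vector libraries.

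The other D-type cyclins went the other way. CCND3, cyclin D3, had 87.4, 84.8 and 91.7 CPM in shKDM2B libraries, against 116.4, 111.7 and 107.0 CPM in empty vector libraries. All shKDM2B libraries were below all empty vector libraries, and the gap between them was wider than the range within either group. The means were 87.9 ± 3.48 CPM in shKDM2B and 111.7 ± 4.73 CPM in empty vector, 1.27-fold lower in shKDM2B (log2 fold change -0.34, SE 0.05, adjusted p 9.15e-05). CCND2, cyclin D2 and not one of the 10, fell further, to 65.5 ± 2.68 CPM in shKDM2B, against 135.0 ± 10.4 CPM in empty vector (log2 fold change -1.04, SE 0.06, adjusted p 5.78e-09). CCND3 (ENSG00000112576.13) spans chromosome 6 from 41934933 to 42050357, minus strand, and has processed pseudogenes that may share its reads.

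Per kilobase, the 3 D-type cyclins summed to 377.1 ± 8.68 CPM per kb in shKDM2B and 226.3 ± 2.95 in empty vector. CCND1 made up 93.6 ± 0.115% of this sum in shKDM2B and 83.2 ± 0.551% in empty vector. The share of CCND2 was 2.43 ± 0.0529% in shKDM2B and 8.33 ± 0.542% in empty vector, and that of CCND3 was 4.02 ± 0.0777% in shKDM2B and 8.51 ± 0.425% in empty vector. The D-type cyclin pool was thus larger in shKDM2B and held a greater part of CCND1, with no overlap between libraries in any of these shares.

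CCNE1 fell slightly. It encodes cyclin E1, the partner of CDK2 at the start of S phase. It had 19.5, 19.0 and 18.0 CPM in shKDM2B libraries, against 24.5, 23.8 and 22.0 CPM in empty vector libraries. The highest shKDM2B library lay below the lowest empty vector library. The means were 18.9 ± 0.734 CPM in shKDM2B and 23.5 ± 1.30 CPM in empty vector, 1.24-fold lower in shKDM2B (log2 fold change -0.32, SE 0.09, 95% interval -0.50 to -0.13, adjusted p 0.00591). With a 1.2-fold change as the null in place of no change, neither CCNE1 (adjusted p 0.22) nor CCND3 (adjusted p 0.0642) was called. The paralog CCNE2 had 24.3 ± 1.33 CPM in shKDM2B and 28.4 ± 1.35 CPM in empty vector (log2 fold change -0.22, adjusted p 0.028), a call lost against a 1.2-fold change (adjusted p 0.624), in DESeq2 (adjusted p 0.0828) and in 4 of the 6 fits that leave out a library (adjusted p 0.12 without shKDM2B replicate 1, 0.066 without shKDM2B replicate 3, 0.0766 without empty vector replicate 1 and 0.0552 without empty vector replicate 3). CCNE1 (ENSG00000105173.14) spans chromosome 19 from 29811898 to 29824308, plus strand.

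CDK6, one of the kinase partners of D-type cyclins, rose 1.58-fold. It had 581.4, 544.4 and 611.1 CPM in shKDM2B libraries, against 382.4, 337.8 and 377.3 CPM in empty vector libraries. Every shKDM2B library was well above every empty vector library. The means were 579.0 ± 33.4 CPM in shKDM2B and 365.9 ± 24.4 CPM in empty vector (log2 fold change 0.66, SE 0.06, 95% interval 0.54 to 0.78, adjusted p 1.86e-07). Its close relative CDK4 had 128.0, 133.0 and 134.5 CPM in shKDM2B and 125.4, 151.8 and 125.2 CPM in empty vector libraries, with overlapping groups (log2 fold change -0.02, 95% interval -0.17 to 0.13, adjusted p 0.786). Per kilobase, CDK6 made up 53.1 ± 1.5% of the sum of both kinases in shKDM2B and 41.5 ± 4.30% in empty vector. The split depends on the exon lengths used, 12260 bases for CDK6 and 3168 for CDK4. CDK6 (ENSG00000105810.10) spans chromosome 7 from 92604921 to 92836594, minus strand, and CDK6-AS1, which overlaps 112 of its bases, had at most 6 counts in any library.

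**Figure D3:**
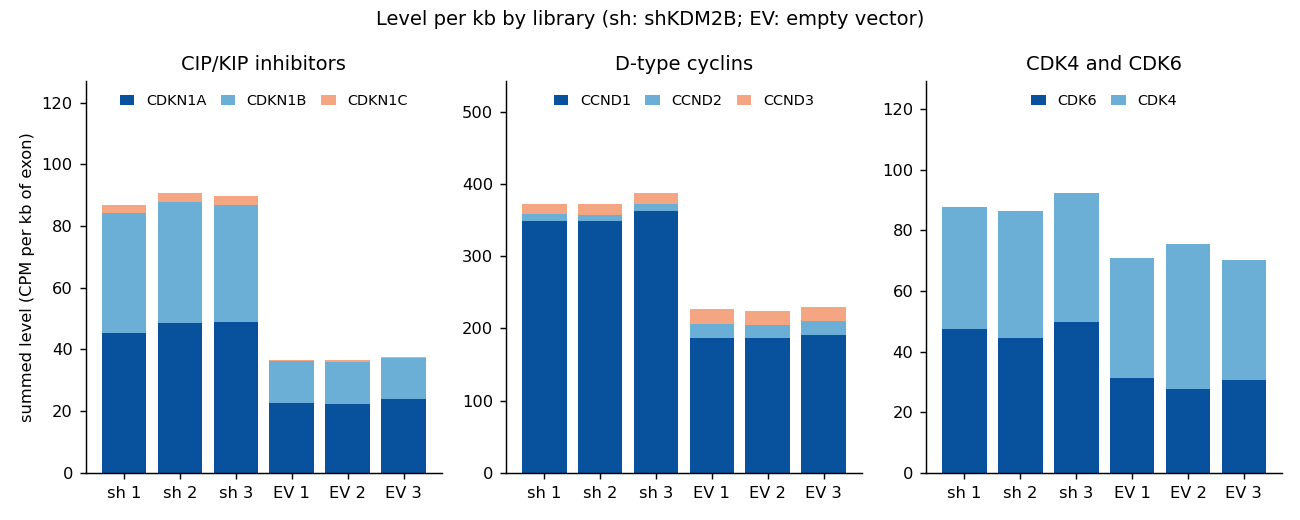
Stacked level of each family by library, in CPM per kb of exon (bars start at 0), with shKDM2B libraries on the left and empty vector libraries on the right of each panel. The CIP/KIP sum is 86.8 to 90.7 in shKDM2B and 36.6 to 37.6 in empty vector, the D-type cyclin bars consist mostly of CCND1, and CDK6 takes a larger part of the kinase sum in shKDM2B.

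The order of the 10 genes by level per kilobase differed between the groups in the places of CDKN1A, CDK6, CDKN1B and CCND3. In shKDM2B, CCND1 was first at 352.8 ± 7.80 CPM per kb, followed by CDKN1A (47.7 ± 2.04) and CDK6 (47.2 ± 2.73), which overlapped. CDKN1B (38.6), CDKN2C (21.0), CCND3 (15.2), CCNE1 (7.39) and CDKN1C (2.86) followed without overlap between neighbours, and CDKN2A and CDKN2B were last at 0. In empty vector, CCND1 was also first, at 188.2 ± 2.29 CPM per kb. CDK6 (29.8), CDKN1A (23.0), CCND3 (19.2), CDKN2C (15.7), CDKN1B (13.4), CCNE1 (9.20) and CDKN1C (0.535) followed, again without overlap between neighbours. CDKN1B therefore stood above CCND3 and CDKN2C in shKDM2B and below both in empty vector, and CCND3 stood below CDKN2C in shKDM2B and above it in empty vector. These places depend on the exon lengths used, 2811 bases for CDKN1B, 5802 for CCND3 and 3318 for CDKN2C.

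Changes in the other core G1 genes went both ways. Of 12 such partners, 11 were tested, with 2 higher (CDKN2D and CCNA2), 4 lower (CCND2, CCNE2, CDK7 and MNAT1) and 5 that missed the threshold, and their median on the log2 scale was 0.02. Among all tested genes, 30.5% were higher and 30.4% lower. CDK2, the partner of cyclins E and A, had 83.8 ± 1.86 CPM in shKDM2B and 82.3 ± 1.27 CPM in empty vector (log2 fold change 0.02, 95% interval -0.08 to 0.13, adjusted p 0.694). CCNA2, cyclin A2, rose slightly, with 388.6 ± 3.33 CPM in shKDM2B and 329.4 ± 4.8 CPM in empty vector (log2 fold change 0.24, adjusted p 0.000234), a call lost against a 1.2-fold change (adjusted p 0.65). The CDK-activating kinase CDK7 and its assembly factor MNAT1 fell, with log2 fold changes of -0.42 and -0.48. Their cyclin, CCNH, had a log2 fold change of 0.05 (adjusted p 0.444). CCNA1 and the phosphatase CDC25A, which activates CDK2, had log2 fold changes of 0.25 (adjusted p 0.168) and 0.09 (adjusted p 0.173), and CDK3 had too few counts to test. Without empty vector replicate 2, both CCNA1 (0.40, adjusted p 0.0197) and CDC25A (0.11, adjusted p 0.0327) passed the threshold.

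**Figure D4:**
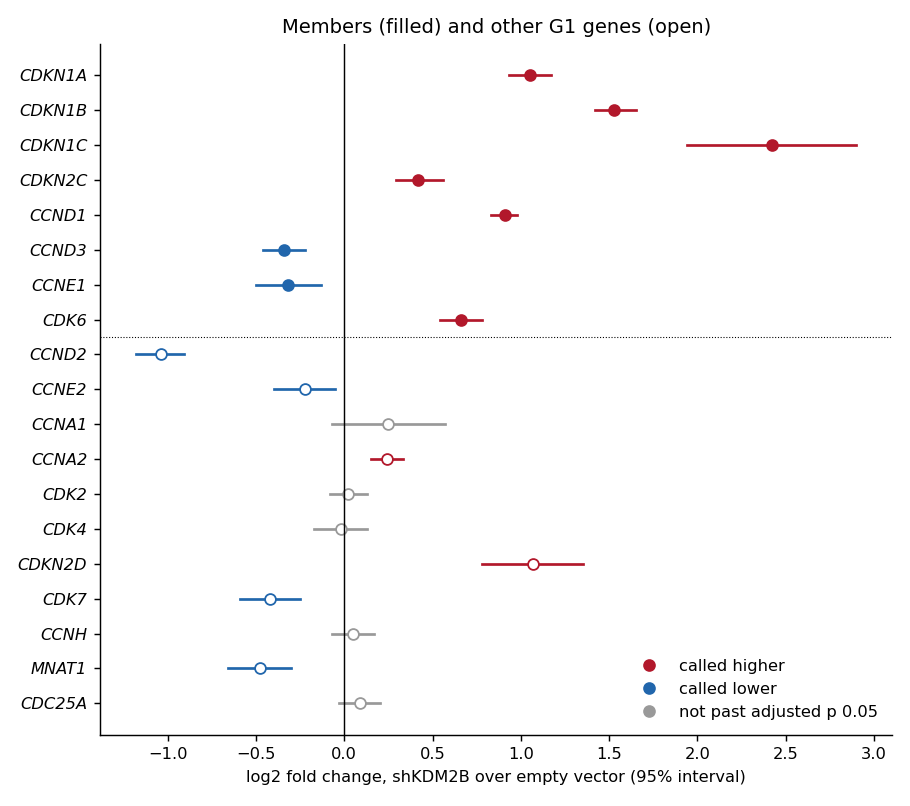
Log2 fold change of shKDM2B over empty vector with its 95% interval (n = 3 libraries each) for the 8 tested members (filled, above the dotted line) and 11 other core G1 genes (open); red marks genes called higher, blue lower and grey not past an adjusted p of 0.05. The 3 CIP/KIP genes lie at 1.05, 1.53 and 2.42, CDKN2D lies at 1.07, and CDK2 and CDK4 lie next to 0.

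Downstream of the kinases, RB1 rose, while the RB and E2F genes as a list went both ways. Of 18 RB and E2F genes, 17 were tested, with 5 called higher, 9 called lower and 3 neither, and their median on the log2 scale was -0.20, beside 30.5% higher and 30.4% lower among all tested genes. RB1, the main substrate of cyclin D kinases, had 259.6 ± 6.93 CPM in shKDM2B and 160.8 ± 11.3 CPM in empty vector (log2 fold change 0.69, SE 0.06, adjusted p 1.22e-07). TFDP2, a dimer partner of E2F proteins, fell to 39.3 ± 3.40 CPM in shKDM2B, against 74.0 ± 4.23 CPM in empty vector (log2 fold change -0.91, SE 0.07, adjusted p 8.78e-08). E2F3, an activator E2F, fell by 0.49 on the log2 scale, whereas the repressor-type E2F5 and the DREAM complex subunit LIN54 rose, with log2 fold changes of 0.65 and 0.51. E2F1, chosen after its values were seen, was lower as well, with a log2 fold change of -0.20 (adjusted p 0.00532). Other repressor-type E2F and DREAM genes, also chosen after their values were seen, went both ways on the log2 scale. E2F6 (0.44) and E2F7 (0.20) were called higher. E2F4 (-0.32), RBL1 (-0.48), RBL2 (-0.26), RBBP4 (-0.35) and E2F8 (-0.16) were called lower, and LIN9 and LIN52 neither.

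Genes that E2F proteins are known to drive at the start of S phase were mostly lower. Of 17 tested, 14 were called lower, 2 higher and 1 neither (median on the log2 scale -0.27), beside 30.4% lower among all tested genes. The called falls ran from -0.14 on the log2 scale (RRM1, chosen after its values were seen) to -0.82 (CDT1). Over all tested genes, the median absolute log2 fold change was 0.365. CDT1, a licensing factor, fell to 46.8 ± 4.26 CPM in shKDM2B, against 83.0 ± 4.17 CPM in empty vector (log2 fold change -0.82, SE 0.07, adjusted p 1.65e-07). CDC45 (-0.74), MCM3 (-0.71) and MCM6 (-0.58) of the replicative helicase and the thymidine kinase TK1 (-0.63) followed on the log2 scale. The 2 that rose were CCNA2, given above, and CDC6, chosen after its values were seen, with a log2 fold change of 0.18 (adjusted p 0.00486).

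Among genes that control the stability of these proteins, SKP2 fell and GSK3B rose. Of 14 tested, 2 were called higher, 4 lower and 8 neither (median on the log2 scale -0.08), beside 60.9% called in either direction among all tested genes. SKP2, the F-box protein that marks p27 for destruction, fell to 60.7 ± 2.74 CPM in shKDM2B, against 82.0 ± 3.29 CPM in empty vector (log2 fold change -0.43, SE 0.06, adjusted p 1.55e-05). GSK3B, a kinase that phosphorylates cyclin D1 and marks it for export and degradation, rose, with 246.3 ± 8.14 CPM in shKDM2B and 141.9 ± 11.2 CPM in empty vector (log2 fold change 0.80, SE 0.06, adjusted p 5.09e-08). AMBRA1, the adaptor of the ligase that degrades D-type cyclins, had a log2 fold change of 0.21 (adjusted p 0.00874). CUL1 (-0.22, adjusted p 0.00151) and RBX1 (-0.29, adjusted p 0.0207), subunits of the ligase that SKP2 belongs to, were lower on the log2 scale. The call of RBX1 was lost without shKDM2B replicate 1 (adjusted p 0.109). Against a 1.2-fold change, the calls of AMBRA1 (adjusted p 0.79), CUL1 (adjusted p 0.755) and RBX1 (adjusted p 0.323) were lost. Protein levels were not measured.

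Among known transcriptional regulators of the 10 genes, 6 of 19 tested were called higher, 7 lower and 6 neither (median on the log2 scale 0.11), counts near the 30.5% higher and 30.4% lower among all tested genes. MYC, which is known to repress CDKN1A together with its partner ZBTB17 (MIZ1), had 138.6, 138.8 and 146.8 CPM in shKDM2B libraries, against 274.1, 249.4 and 256.4 CPM in empty vector libraries. The groups did not overlap, and MYC fell by 0.88 on the log2 scale (SE 0.05, adjusted p 5.28e-09). ZBTB17 fell to 14.8 ± 1.43 CPM in shKDM2B, against 24.1 ± 2.29 CPM in empty vector (log2 fold change -0.71, SE 0.10, adjusted p 3.75e-05). FOXO1 and FOXO4, forkhead factors known as activators of CDKN1B, rose, both at low levels. FOXO1 had 9.13 ± 1.10 CPM in shKDM2B and 3.54 ± 0.518 CPM in empty vector (log2 fold change 1.35, SE 0.16, adjusted p 5.81e-06). FOXO4 had 9.01 ± 0.0162 CPM in shKDM2B and 4.31 ± 0.410 CPM in empty vector (log2 fold change 1.05, SE 0.14, adjusted p 1.41e-05). FOXO3, the most abundant FOXO gene of the list by CPM and chosen after its values were seen, had 87.1 ± 7.22 CPM in shKDM2B and 90.1 ± 2.64 CPM in empty vector (log2 fold change -0.05, adjusted p 0.554). TP73 was higher, with 9.50 ± 0.861 CPM in shKDM2B and 5.78 ± 0.505 CPM in empty vector (log2 fold change 0.71, SE 0.14, adjusted p 0.000408). Whether any of these regulators acts on the 10 genes here was not tested.

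**Figure D5:**
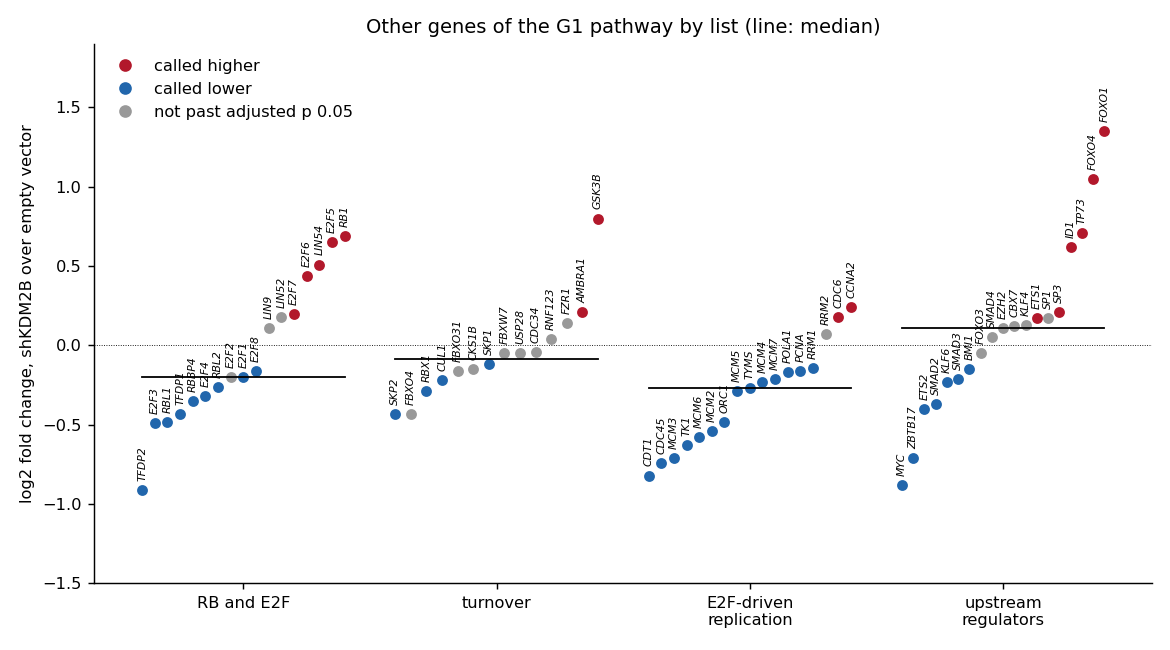
Log2 fold change of shKDM2B over empty vector (n = 3 libraries each) for the tested genes of 4 lists, ordered by value within each list; red marks genes called higher, blue lower and grey not past an adjusted p of 0.05, and the horizontal line is the list's median. The medians are -0.20 for RB and E2F genes, -0.08 for turnover genes, -0.27 for E2F-driven replication genes and 0.11 for upstream regulators, beside -0.007 over all tested genes.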

How the data were processed

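The deposited table holds raw read counts per gene for the 6 libraries, with versioned Ensembl identifiers; RNA was ribosome-depleted total RNA, per the labels' protocols. The build GRCh38 (hg38) is named in the submitters' processing notes, with the tools STAR, Trim Galore, featureCounts, limma, edgeR and DESeq2, without version or role. Which annotation and strand setting were used, and how multimapping reads were counted, is not stated. Columns were matched to samples by name; those of the knockdown read sh79 and a number, and were assigned to shKDM2B, the one shRNA group.

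Positions, exon lengths and biotypes came from GENCODE release 29, which holds 58356 of the 61533 rows. Low counts were removed by filterByExpr (at least 10 counts in enough libraries and 15 in all). After TMM scaling, groups were compared with edgeR 4.0.16 in R 4.3.3 by the robust, two-sided quasi-likelihood test, with Benjamini-Hochberg adjustment over all 14071 tested genes. Log2 fold changes are shKDM2B over empty vector. CPM per kb is CPM divided by the union exon length in kb, and sums and shares over families carry no test. Within groups, libraries differed by more than counting error (chi-square over degrees of freedom from 1.89 to 8.74), and each was counted once. That spread does not show whether they came from separate cultures. Promoter windows are the 250 bases before the start in a RefSeq table (GRCh38.p14), read with Python 3.11.15. The fit was tested on simulated data.

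The 10 genes, the gene lists and the naming rule were chosen with earlier results of these data known. Named were the 10 genes, KDM2B, every core G1 partner, every listed gene next to CDKN2A, MYC, and up to 5 called genes with the largest change and a mean CPM of at least 5 from each other list. Alternatives were other scalings, filters, DESeq2 1.42.0, limma-voom (limma 3.58.1), no robust step, a replicate block, a 1.2-fold null and leaving out each library. Some genes of the pathway are not reported here.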

Additional observations from a re-analysis of the deposited data

How the results depend on the processing

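Over 15 alternatives and 42 named tested genes, 613 of 630 values kept their direction and their side of the threshold, as did 118 of the 120 values of the 8 tested members. A 1.2-fold null left 5458 calls over all genes, 2797 higher and 2661 lower. The same test called 6 members higher and 0 lower, with 1 (CCND3) at an unadjusted p under 0.05 (0.0259, and 0.112 for CCNE1), whereas DESeq2 against no change called 2 lower. That test asks for a larger change by construction. Values that turned sign were those of CDK2 (-0.0 without a filter, adjusted p 0.981) and CDK4 (0.07 without empty vector replicate 2, adjusted p 0.161, and from -0.08 upward when other libraries were left out), neither called, and the cause was not tested.

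Leaving out 1 library gave 7566 to 9128 changed genes, 3798 to 4546 higher and 3768 to 4582 lower, with 6 members higher and 2 lower each time. The log2 fold change of CDKN1C ran from 2.21 to 2.66 over all alternatives. With the replicate number as a block, 8478 genes were called, 4249 higher and 4229 lower, and 6 members were higher and 2 lower. Deviations of same-numbered libraries correlated at 0.118, -0.0258 and 0.0751, and those of differently numbered libraries at -0.135 to 0.0838. With 3 libraries per group, such values cannot settle whether the numbers pair the samples. The median log2 fold change of all tested genes lay between -0.018 and -0.006 under the 3 scalings and was -0.029 without a filter. Low counts limit CDKN1C, and CDKN2A and CDKN2B cannot be compared at all.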
